A study of Mus musculus with 50 samples.

Results

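Slc25a3 and Cdk4 are 2 of the 6860 gene symbols in the variant table of IL6Myc mouse tumours, and in each of them the deletion listed removes exactly 1 intron. The genes were chosen by measured values of this table, namely the length of the deleted reference letters and the written ends of the deletion, which match an intron, so that match is a description and was not tested. Each gene had 1 row among the 25624 single-allele rows, and neither appeared in the 199 rows left out because they hold several alternate alleles. Exomes were captured from genomic DNA of mesenteric lymph nodes of IL6Myc transgenic mice, which carry an interleukin 6 and a Myc transgene and serve as a myeloma model. The labels call the cell type malignant plasma cell, give 1 mouse per tumour and name no promoter for either transgene. The labels hold 45 tumours and 5 kidneys of wild-type BALB/c mice. Neither the kidneys nor tumour 4 were analysed here. This leaves 44 tumours of 1 genotype, and a deletion inherited by the mice cannot be told apart from one that arose in a tumour. DNA cannot be set against plasma cell marker genes, so the share of tumour cells in each lymph node is unknown.

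Each tumour has a cell per row that holds either the percent of reads with the alternate allele, termed the read share here, or a dot for no call. Read depth is unknown, so a dot can stand for the reference allele or for too few reads, and no interval was set around a single read share. The 95% intervals beside numbers of tumours are exact (Clopper-Pearson) and reflect counting error alone.

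Slc25a3 encodes the phosphate carrier of the inner mitochondrial membrane, which brings phosphate into the matrix for ATP synthase. Cdk4 encodes a cyclin-dependent kinase that binds D-type cyclins and phosphorylates the retinoblastoma protein at the start of the cell cycle, and its cyclin partners are often overexpressed in myeloma. Spliced messenger RNA can be reverse transcribed and inserted elsewhere in a genome, which leaves a retrocopy, a copy of the gene without its introns. Reads from such a copy that cross a junction of exons align to the parent gene with the intron missing, so a variant caller can list them as a deletion of the intron in the parent gene.

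The deleted letters are printed because they show what is missing. The first pair gives each deletion in the direction of the transcript, shifted so that it starts and ends with the intron. The donor GT and the acceptor AG are in capitals. For Slc25a3 the first 3 letters are the deleted exon bases moved to the front, as the intron bases there were not listed. For Cdk4 the last letter is the first listed letter moved to the end. The Slc25a3 letters lie at chr10:91117122-91117209 of mm10 on the minus strand, and those of Cdk4 at chr10:127065002-127065153 on the plus strand.
Slc25a3: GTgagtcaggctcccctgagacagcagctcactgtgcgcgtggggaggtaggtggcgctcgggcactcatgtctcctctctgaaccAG
Cdk4: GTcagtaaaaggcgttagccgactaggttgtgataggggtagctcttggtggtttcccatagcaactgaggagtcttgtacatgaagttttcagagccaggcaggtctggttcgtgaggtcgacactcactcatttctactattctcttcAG

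The next pair gives the same deletions as the deposited annotation writes them, with the ends moved toward the 3′ side. The capitals mark the bases written as the first of the following exon. For Cdk4 they are the GT at the start of the intron moved to the end, as those exon bases were not listed.
Slc25a3 as written: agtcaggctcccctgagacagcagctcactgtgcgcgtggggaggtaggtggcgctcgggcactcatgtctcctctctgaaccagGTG
Cdk4 as written: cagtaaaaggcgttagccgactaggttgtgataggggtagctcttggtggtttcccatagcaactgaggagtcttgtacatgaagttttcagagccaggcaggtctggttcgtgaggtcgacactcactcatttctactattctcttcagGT

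The Slc25a3 deletion was 88 bases long with a GC content of 63.6%, and covered 1.18% of the span of the gene (RefSeq gene ID 18674, chr10:91116574-91124046, minus strand, RefSeq GRCm38.p6, the assembly that mm10 names). Its written form, c.913+4_916del, keeps 3 bases of the intron and takes 3 bases of the next exon. The exon bases read GTG. The kept intron bases were not read and are taken to be GTG too, in which case the outcome equals the removal of the intron after coding base 913. With that repeat and a lost length equal to the intron, the joined exons would keep the coding sequence of the spliced transcript. The table nevertheless calls the row a splice acceptor variant with a loss-of-function effect, an effect it gives to 182 of 25624 rows (0.710%).

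The Cdk4 deletion was 152 bases long with a GC content of 48.0%, and covered 4.05% of the span of the gene (RefSeq gene ID 12567, chr10:127063535-127067288, plus strand). Its written form, c.522+3_524del, keeps 2 bases of the intron and takes 2 of the next exon. The kept intron bases read GT. The exon bases were not read and are taken to be GT too. In that case the outcome equals the removal of the intron after coding base 522. This row, too, is listed as a splice acceptor variant with a loss-of-function effect. Both labels follow from where the ends are written, since the shifted form removes no exon base. For both genes this rests on an assumed repeat, of which the intron copy was read for Cdk4 and the exon copy for Slc25a3.

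The Slc25a3 deletion was called in 43 of 44 tumours (97.7%, exact 95% interval 87.98 to 99.94%). For comparison, 1541 of all 25624 rows were called in over 22 tumours (6.01%), and 205 were called in 43 or 44 tumours (0.800%). Of the 205, 175 were single-nucleotide variants (SNVs) and 18 were deletions, which is 0.531% of the 3391 deletion rows. The longest of the other deletions among the 18 removed 8 bases. Of the 93 deletions of at least 80 bases, 1 was called in over 22 tumours (1.08%), and it was the Slc25a3 deletion. It therefore stood alone in the table in being both long and near-universal.

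The read share of the Slc25a3 deletion ran from 24.7% in tumour 3 through a median of 34.7% to 47.1% in tumour 18, with quartiles of 31.8% and 36.6%. The mean was 34.95% ± 4.43 (SD, n = 43). The values formed a single band: 31 of 43 tumours lay between 30 and 40%, 5 lay below 30%, 7 above 40%, and 0 at 50% or more. Tumour 18 was the highest, and the next tumour stood at 43.5%. The SD was smaller than the median SD of 8.32 among the 205 rows called in 43 or 44 tumours, and 7 of those rows had a smaller one. The median of their median shares was 49.0%, and 19 of them had a lower median than the Slc25a3 deletion, of which 2 lay outside chromosome 4.

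**Figure D1:**
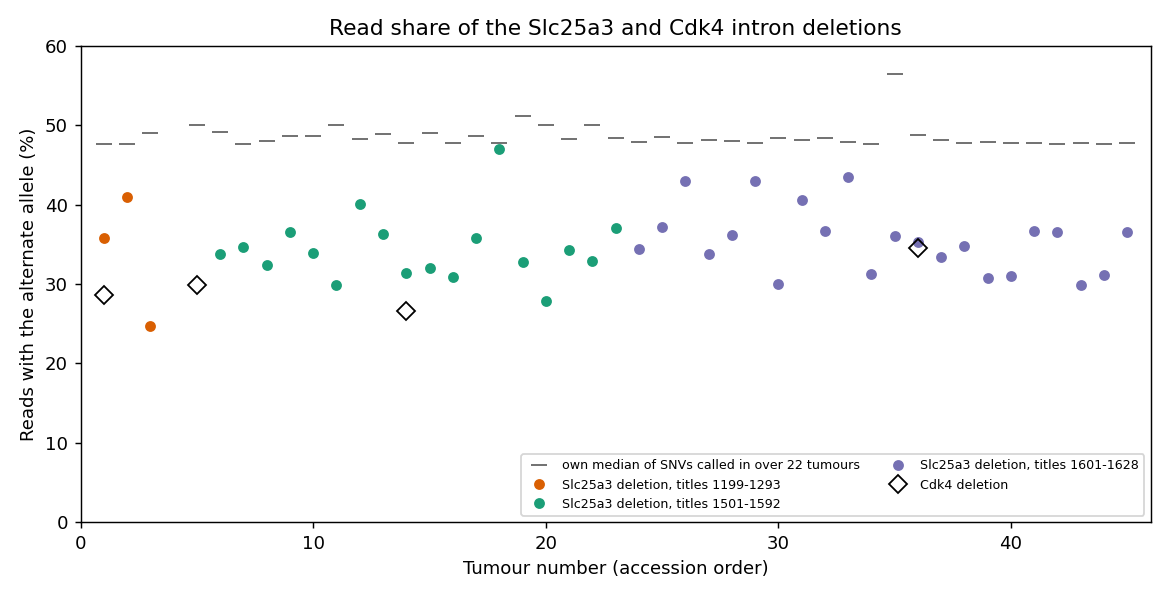
Read share (%) of the Slc25a3 deletion (filled circles, coloured by title series) and the Cdk4 deletion (open diamonds) in each of 44 tumours, numbered in accession order; the dash is that tumour's median share over the 1308 SNVs called in over 22 tumours. The 43 circles and 4 diamonds all lie below the dash of their own tumour, and tumour 5 has a diamond and no circle.

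Set against the same libraries, the Slc25a3 deletion had a lower read share than widely shared SNVs in every tumour that carried it. The reference was each tumour's median share over the 1308 SNVs called in over 22 tumours, which averaged 48.5% over the 43 tumours. The mean difference, deletion minus reference, was -13.6 percentage points ± 4.86 (SD, n = 43), and it was negative in 43 of 43 tumours, from -24.3 to -0.77. A two-sided sign-flip permutation test with 100000 resamples gave p = 1e-05, the smallest it can give. The read share was known from earlier results before the test. The p-value reflects how steady the difference was across tumours, not how unusual this row is. Of the 205 rows called in 43 or 44 tumours, 19 had a lower median share. The difference was -15.3 points against 126 widely shared deletions and -17.1 points against 277 deletions of at least 10 bases in 2 or more tumours. Against 80 SNVs of chromosome 10 in 2 or more tumours it was -35.3 points, because that reference averaged 70.3%. The direction was the same with each reference, and the size depended on the reference chosen.

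Tumour 5 alone had no call at the Slc25a3 deletion. A missing call there was not particular to this row: of the 140 rows called in exactly 43 tumours, 9 lacked tumour 5, and these included 8 others on 5 chromosomes. For tumour 3, which had the lowest Slc25a3 share, 97 of the 140 rows had no call. Tumour 5 had 2508 calls in all. Whether the Slc25a3 deletion was absent from tumour 5 or was not called for want of reads was not tested.

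Titles are the only label that divides the tumours, into series 1199-1293, 1501-1592 and 1601-1628, and they are not stated to be batches. The Slc25a3 deletion was called in 3 of 4, 18 of 18 and 22 of 22 tumours of the 3 series. Its share averaged 33.8% ± 8.35 (SD, n = 3), 34.4% ± 4.27 (SD, n = 18) and 35.5% ± 4.13 (SD, n = 22). The 3 ranges overlapped. The first series minus the second was -0.60 points by a two-sided exact permutation test (p = 0.886, adjusted p = 0.886). The first minus the third was -1.69 points (exact permutation p = 0.545, adjusted p = 0.818), and the second minus the third was -1.09 points (permutation p = 0.430, adjusted p = 0.818). The adjustment was Benjamini-Hochberg over the 3 pairs, and none of the differences exceeded the spread between tumours.

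The Cdk4 deletion was rarer, and was called in 4 of 44 tumours (9.09%, exact 95% interval 2.53 to 21.7%). The read share was 28.7% for tumour 1 and 29.9% for tumour 5, while tumour 14 had 26.6% and tumour 36 had 34.5%. The values lay close together, with a mean of 29.9% ± 3.35 (SD, n = 4) and tumour 36 the highest. Each was below that tumour's own SNV median, which was 47.6%, 50.0%, 47.7% and 48.7% in the same order. The differences, deletion minus SNV median, were -18.9, -20.1, -21.1 and -14.2 points, with a mean of -18.6 ± 3.05 (SD, n = 4). All 4 carriers thus showed the direction seen for Slc25a3; 4 paired values cannot give a two-sided sign-flip p below 0.05, so none was computed.

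The carriers of the Cdk4 deletion were 2 of 4, 1 of 18 and 1 of 22 tumours in the 3 title series, and a two-sided Fisher exact test over the series gave p = 0.0357. The call rested on single tumours: without tumour 1 or without tumour 5 the Fisher exact p was 0.266. It was 0.0193 without tumour 14 and 0.00908 without tumour 36. Other exact intron deletions per tumour also differed between the series, with 4 to 6 (median 6) in the first, 0 to 7 (median 2) in the second and 0 to 3 (median 1) in the third. All calls per tumour had medians of 4275.5, 4499.5 and 2329.5 in the same order. The part of these differences in the Cdk4 result was not tested.

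Tumours 1, 14 and 36 carried both deletions. In tumour 1 the Slc25a3 share was 35.8% and the Cdk4 share 28.7%, a difference of 7.13 points. In tumour 14 the shares were 31.4% for Slc25a3 and 26.6% for Cdk4, which is 4.85 points apart. In tumour 36 they were 35.3% and 34.5%, only 0.75 points apart. The Slc25a3 share was the higher in 3 of 3, too few for a two-sided sign-flip test to reach 0.05, and the difference was not tested. Tumour 5 had the Cdk4 deletion with no Slc25a3 call, so the 2 calls did not always occur together.

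**Figure D2:**
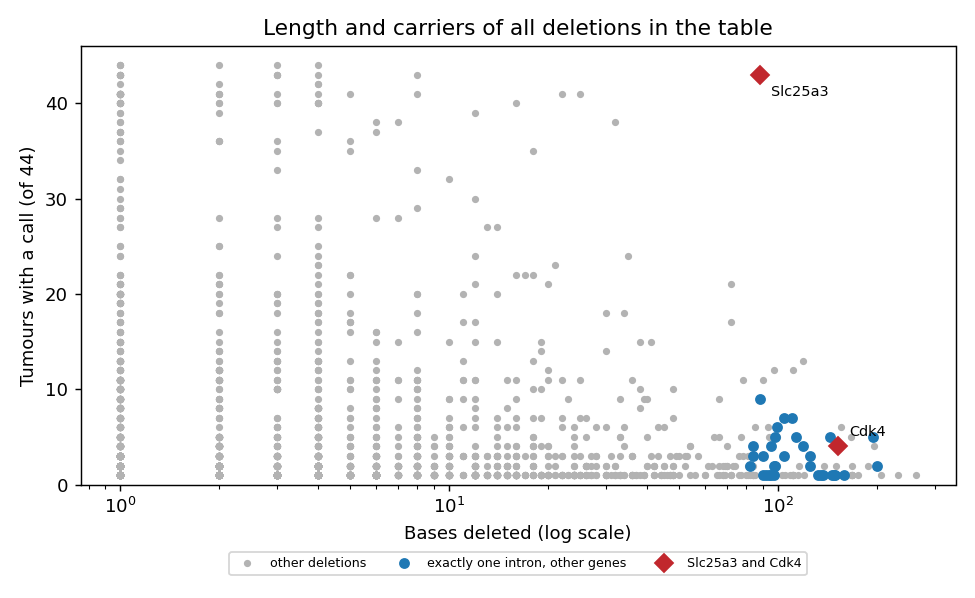
Number of tumours with a call (of 44) against the bases deleted, on a log axis, for all 3391 deletion rows; red diamonds mark Slc25a3 and Cdk4, blue circles the other deletions that remove exactly 1 intron, and grey points all others. Slc25a3 (88 bases, 43 tumours) lies alone at the upper right, while Cdk4 (152 bases, 4 tumours) lies among the blue circles, none of which exceeds 9 tumours.

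Neither gene had any other variant in the table: 0 further rows of any effect were listed for Slc25a3 and 0 for Cdk4. The table held 20289 SNV rows in all, and 25.5% of its 6860 gene symbols had a protein-altering row other than an exact intron deletion. The share of gene symbols with only 1 row was not counted, so the absence is not read as particular to these 2 genes. Each gene thus showed 1 missing intron, with no call at another of its introns. The longest deletion in the table removed 262 bases. How many other introns of the 2 genes are short enough to have been listed, and captured, was not tested, since exon positions were not used here.

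The rows listed near each deletion were described, without an expected number for such a window. The rows closest to the Slc25a3 deletion lay 1578397 bases before it and 35506 bases after it. The latter was a missense variant of Tmpo, which encodes a nuclear lamina protein, at 5.45% in 1 tumour. Within 1 Mb of the Slc25a3 deletion were 3 rows, each in 1 tumour. The closest rows to the Cdk4 deletion lay 548374 bases before it and 104773 bases after it, the latter in an intron of B4galnt1, a ganglioside synthase gene, at 13.3% in 1 tumour. Within 1 Mb of it were 12 rows, of which 10 were in 1 tumour and 1 was in over 22. The 2 deletions lie 35947880 bases apart on chromosome 10, which holds 489 rows. Of these, 12, the Cdk4 deletion included, were called in all 4 of its carriers. Besides the Cdk4 deletion, 0 rows of the table were called in the same 4 tumours and no others.

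Exact intron deletions formed a small class of the table, to which both genes belong by choice. They were 34 of 3391 deletion rows and 34 of the 93 deletions of at least 80 bases (36.6%), and fell in 28 of 6860 gene symbols (0.408%). Lengths ran from 82 to 200 bases with a median of 104, so Slc25a3 is near the short end, with 3 shorter rows, and Cdk4 near the long end, with 3 longer ones. Carriers numbered 1 in 12 rows and 2 to 9 in 21 rows, which leaves Slc25a3 apart with 43. Cdk4 was not unusual in this respect: 9 rows had more carriers and 4 rows, its own included, had 4.

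The deleted letters were read for intron ends. For the 27 rows whose strand was known from RefSeq, a shift of at most 6 bases placed GT at the start and AG at the end in 27 of 27. With either strand allowed, 34 of 34 had these ends, against 8 of the 59 other deletions of at least 80 bases (13.6%). Annotated introns nearly always begin with GT and end with AG, so these ends follow from how the 34 rows were chosen, and the counts describe the rows and support nothing further.

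The loss-of-function label followed the way the ends were written. Of the 34 rows, 17 were written with shifted ends, for which the bases at the donor and after the acceptor are taken to repeat. The shift was 3 bases in 2 rows (Slc25a3 and Nabp2), 2 bases in 6 rows, Cdk4 among them, and 1 base in 9 rows. All 17 were annotated as loss of function. Of the 17 rows written from the first to the last intron base, 1 was, a deletion in Ccne2, which encodes cyclin E2. The same kind of event was thus listed as a splice acceptor variant in Slc25a3 and Cdk4 and as a splice region variant in the other unshifted rows.

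**Figure D3:**
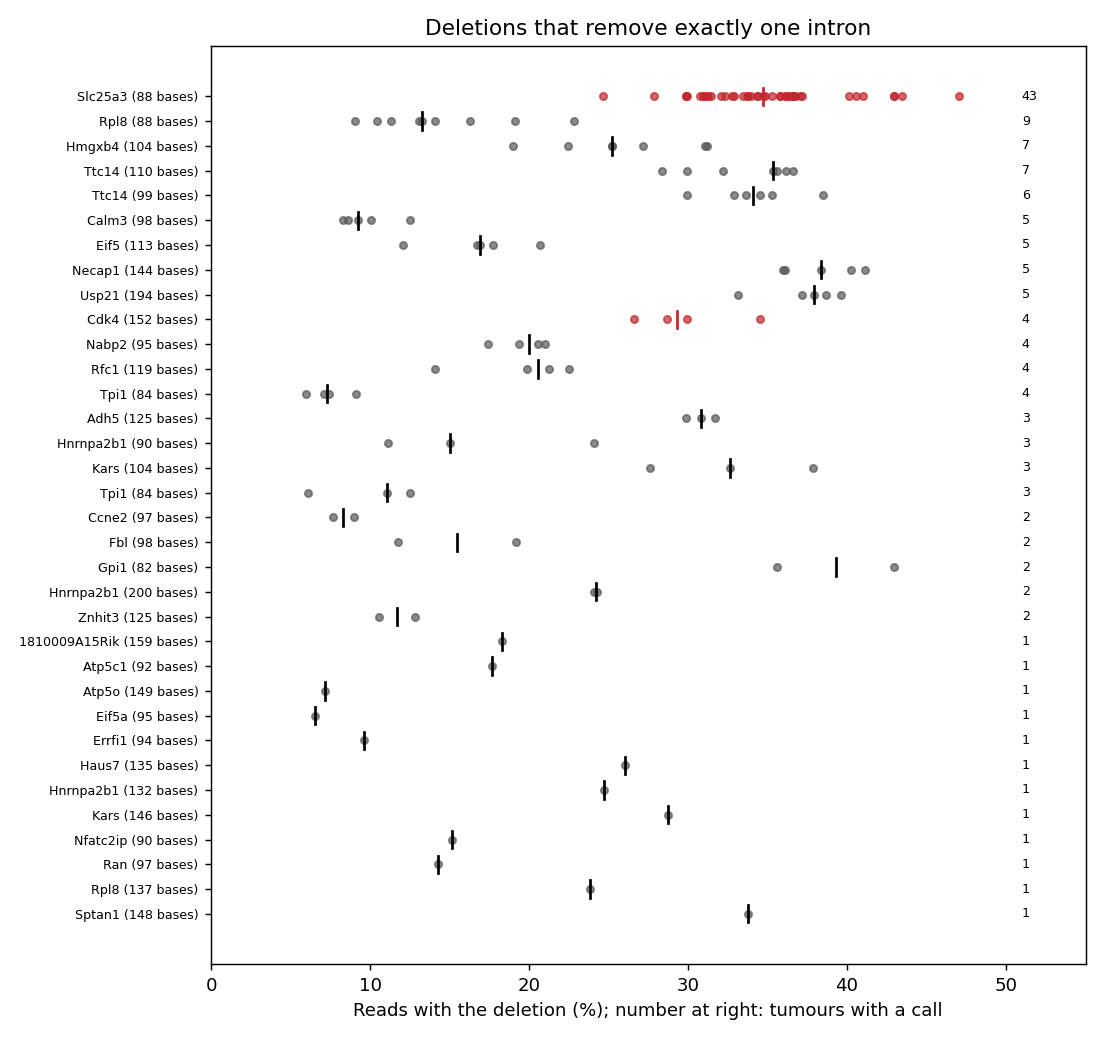
Read share (%) of each exact intron deletion in each tumour with a call (points), with the median as a vertical bar and the number of tumours at right; Slc25a3 and Cdk4 are red. No point reaches 50%; the medians run from 6.51 to 39.3%, with both red ones in the upper part.

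The read shares of Slc25a3 and Cdk4 lay in the upper range of the class. Outside the 2 genes, 95 calls had a median share of 21.2%, and medians of single rows ran from 6.51 to 39.3%. Only 4 rows had a higher median than the Slc25a3 deletion and 9 a higher one than the Cdk4 deletion. The highest single share in the class was the 47.1% of Slc25a3 in tumour 18, and 0 of 34 rows had a median of 50% or more. Among the 59 other deletions of at least 80 bases, 25 had a median of 50% or more. Their 151 calls had a median of 57.5%, but the median over rows of the per-row median was 40.7%.

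Shares differed more between deletions than between the tumours that carried the same deletion. Among the 15 other rows with at least 3 carriers, the SD within a row ran from 0.90 to 6.66 with a median of 3.10, while the SD between the row medians was 10.96. The SDs of Slc25a3 (4.43) and Cdk4 (3.35) lay within that range. Of these 15 rows, 8 had every call below 25%, and 6 had every call from 25 to 42%. The 4 Cdk4 calls also lay from 25 to 42%, while Slc25a3 had calls on both sides of that range.

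Genes with shares like those of Slc25a3 and Cdk4 were mostly carried by few tumours. Necap1, an endocytosis gene, had a median of 38.4% in 5 tumours, and Usp21, a deubiquitinase gene, 37.9% in 5. Ttc14 lost 1 intron in 7 tumours (35.4%) and another in 6 (34.1%). Kars, the lysyl-tRNA synthetase gene, had 32.6% in 3 tumours for 1 intron and 28.7% in 1 tumour for another. Adh5, an alcohol dehydrogenase gene, had 30.8% in 3, and Hmgxb4 25.2% in 7.

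Other genes of the class had lower shares. Rpl8, a ribosomal protein gene, had the most carriers after Slc25a3, with 9 tumours at 9.03 to 22.8% and a median of 13.3%. This deletion, like that of Slc25a3, was 88 bases long. A second Rpl8 intron was listed at 23.85% in 1 tumour. Eif5, a translation initiation factor gene, had a median of 16.9% in 5 tumours, Calm3, a calmodulin gene, 9.26% in 5, and Tpi1, a glycolytic enzyme gene, 7.28% in 4 and 11.1% in 3 for its 2 introns. Rfc1, a replication factor gene, had 20.5% in 4, and Fbl, the fibrillarin gene, 15.5% in 2. Hnrnpa2b1, an RNA-binding protein gene, had 15.1% in 3, 24.2% in 2 and 24.7% in 1 for its 3 introns. Ccne2 had 8.32% in 2. Nabp2, a single-stranded DNA binding protein gene that also lies on chromosome 10, had 19.985% in 4 tumours, of which tumour 5 also carried the Cdk4 deletion.

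A retrocopy that has lost all its introns could be listed at more than 1 intron in the same tumour. In 5 genes more than 1 intron was listed as deleted, which gives 7 pairs of introns. Of these, 6 pairs had no carrier in common. The exception was Ttc14, with 2 tumours in common of 11 with either. Carriers in the other pairs were few, such as 3 and 1 for Kars, 9 and 1 for Rpl8 and 4 and 3 for Tpi1. Several of the pairs come from Hnrnpa2b1 alone. The overlap that chance would give was not computed, so whether carriers were shared less often than by chance was not tested. For Slc25a3 and Cdk4 no pair could be formed, as each had 1 intron listed. The exact lengths and the intron ends of the 2 deletions are the values by which the genes were chosen, so they do not bear on the origin of the reads. Whether the reads come from a copy elsewhere in the genome, inherited or newly inserted, from the genes themselves or from another source was not tested.

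**Figure D4:**
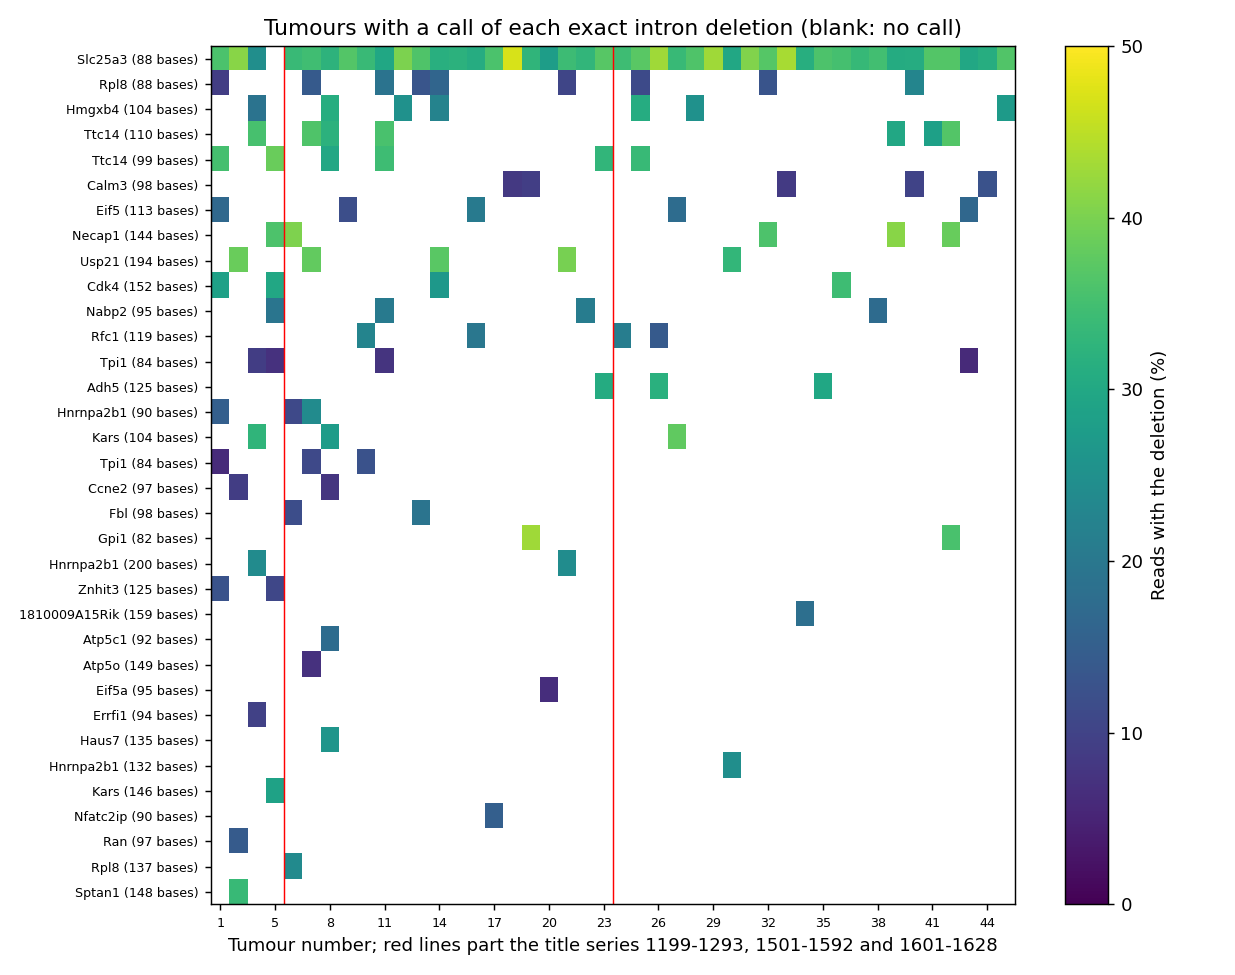
Grid of the 34 exact intron deletions (rows, with length in bases) by 44 tumours (columns), coloured by read share (%) with blank cells for no call; red lines part the title series. The Slc25a3 row is filled in all tumours but tumour 5, the Cdk4 row is filled in tumours 1, 5, 14 and 36, and the other rows are sparse.

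Most tumours carried an exact intron deletion besides those of Slc25a3 and Cdk4. There was at least 1 in 39 tumours and 0 in 5, with a median of 2 and a highest number of 7. The tumours without one nevertheless had the Slc25a3 deletion, whose only missing call, in tumour 5, was in a tumour with 6 others besides Cdk4.

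Related genes were described from 4 lists, beside the same measures over the whole table. There, 0.408% of gene symbols had an exact intron deletion and 25.5% had another protein-altering row. Both shares are over symbols that have a row. The share of all protein-coding genes with a row is not given here. The numbers of list genes with or without a row are therefore not read as results. Of 46 other mitochondrial carrier genes (the Slc25a family), 7 had 9 rows, 0 of them protein-altering and 0 exact intron deletions. The most widely carried was an intronic variant of Slc25a24, an ATP-magnesium and phosphate carrier, in 18 tumours at a median of 50.0%. Slc25a44 had an intronic variant in 7 tumours, and Slc25a5, an adenine nucleotide carrier, a synonymous variant in 2.

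ATP synthase, which uses the phosphate that SLC25A3 imports, was listed with the adenine nucleotide carriers. Of 20 such genes 6 had a row, 18 rows in all. Exact intron deletions were listed for 2 of them, Atp5c1 (17.7%) and Atp5o (7.17%), and both encode subunits of the enzyme. This is 2 of 6 genes with a row, beside 0.408% of all gene symbols, and rests on a call in 1 tumour for each gene. A link to the Slc25a3 deletion was not tested. Other protein-altering rows were 2, a frameshift of Atp5c1 in 2 tumours at 12.95% and a missense variant of Atp5a1 in 1.

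Of 16 genes of the axis of D cyclins, CDK inhibitors, CDK6, retinoblastoma proteins and E2F factors, 2 had rows, and 0 of their 42 rows were exact intron deletions. Rbl1, a relative of the retinoblastoma protein, had missense variants in 20, 17 and 17 tumours, the first at a median of 50.0%. Rbl2, another relative, had 1 missense variant in 1 tumour at 4.29%. D cyclins, Cdk6, the CDK inhibitors, Rb1 and the E2F genes on the list had no row.

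The last list held 107 genes known for many processed pseudogenes, chiefly those of ribosomal proteins. Its prefix rule also took 10 S6 kinase genes, of which 4 had rows. Of the 107, 35 had 91 rows, where 1 variant listed under 2 gene symbols counts once for each. Of these rows, 2, both of Rpl8, were exact intron deletions. This is 1 gene of 35 with a row, beside the 0.408% of all gene symbols. Other protein-altering rows were 9 in 8 genes. The variants in most tumours were those of the kinase gene Rps6ka5, in up to 43, and of the ribosomal genes Rpl24, in up to 13, and Rpl28, in 10, and none of these was an intron deletion.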

How the data were processed

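Genomic DNA of 44 IL6Myc tumours was exome sequenced, and the analysis starts from 1 table of annotated variants. Per the submitters' processing notes, GATK and mm10 were used. How reads were aligned, filtered and annotated is not stated in these sources. The authors deposited, for each tumour, a percent or a dot, and a count of tumours with a value, which equalled the filled cells in all 25624 rows analysed. The values are taken to be percentages of reads with the alternate allele. The table gives no depth per sample, so the precision of a single share is unknown.

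The members and lists were chosen with earlier results of these data known. A deletion was termed an exact intron deletion where its written ends imply a lost length equal to the intron; letters were shifted by at most 6 bases to seek GT and AG. On simulated data, the rule called 200 of 200 exact introns and 0 of 200 deletions that were both shifted and shorter than the intron. Because the rule compares lengths, the second count was fixed in advance. Shifted deletions of the same length as the intron were not simulated. Strand, gene spans and symbols came from RefSeq tables of GRCm38.p6. The genes named are Slc25a3, Cdk4, up to 15 others with an exact intron deletion by carriers and then name, and at most 3 per list; Atp5c1, Atp5o, Atp5a1 and Rbl2 beyond those, and the neighbours Tmpo and B4galnt1, were named after their values were seen. Tests were permutation and Fisher exact tests in Python 3.11.15 with SciPy 1.17.1, numpy 2.4.6 and pandas 2.3.3. P-values measure the spread between tumours, which the labels give as 1 mouse each. Alternatives were other minimum shares, references, tumours and definitions.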

Additional observations from a re-analysis of the deposited data

How the results depend on the processing

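The Slc25a3 and Cdk4 deletions kept 43 and 4 carriers at minimum read shares of 10 and 20%. The median Slc25a3 share stayed between 34.6 and 34.7% without titles 1199-1293 or without the Cdk4 carriers, and that of Cdk4 between 28.7 and 29.9% with each carrier left out in turn. The Slc25a3 share minus the SNV reference was -13.5 points without titles 1199-1293, and the other references gave -15.3, -17.1 and -35.3 points. Without the Cdk4 carriers, the differences between title series were -1.76, -2.69 and -0.93 points (adjusted permutation p = 0.643 for each). The number of exact intron deletions was 34 by written ends within 10 bases of the exon ends and with several-allele rows kept. The Fisher exact p of Cdk4 carriers by title series ranged from 0.00908 to 0.266 with 1 carrier left out, an alternative chosen after seeing the data, and passed 0.05 without tumour 14 or 36 only. No paired analysis was possible because all tumours analysed are of 1 group, so no groups share replicate numbers; the comparison of the deletion with SNVs of the same tumour is paired within the tumour. Depth is unknown, so a missing call cannot be told apart from a site with too few reads.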
